A study of Mus musculus with 6 samples.

Results

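The 9 members described here are protein-coding transcripts of the mouse mitochondrial genome: mt-Nd1, mt-Nd2, mt-Nd4 and mt-Nd5, mt-Cytb, mt-Co1, mt-Co2 and mt-Co3, and mt-Atp6. They were taken by symbol from 25696 mouse genes with a row in any of the tables, 13 of which are protein-coding genes of the mitochondrial genome. The study isolated nuclei from 50 µm scrolls of formalin-fixed, paraffin-embedded (FFPE) brain of C57BL/6J mice aged 8 to 12 weeks, which the labels call cortex in all 6 samples. Paraffin was removed with xylene, at room temperature or heated, or with heated mineral oil, and frozen nuclei of the same study stood beside the fixed ones.

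Pools of nuclei were sequenced by SCRB-seq, a method that tags the 3′ end of each transcript, in 16 wells per paraffin removal method and 16 wells of frozen nuclei, 8 wells of 10 and 8 wells of 100 nuclei each. They were also sequenced by SMART-Seq2, which reads whole transcripts, with 1 well of each size (10, 50 and 100 nuclei) in each of the 3 methods and in the frozen group. Single nuclei were sequenced by SMART-Seq2 in plates (143 FFPE nuclei, from the left hemisphere, and 137 frozen nuclei, from the right) and, from FFPE tissue alone, in droplets on a 10x platform (7031 nuclei, in 12 classes that the authors named). The wells of a chemistry belong to 1 deposited sample and nothing names separate animals, so p-values measure only the spread between wells. Each method and nuclei number in SCRB-seq was 1 library pool, so pool and group cannot be told apart.

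The mitochondrial genome is a small circular molecule present in many copies per cell and transcribed inside the organelle. Its messenger RNAs encode membrane subunits of the respiratory chain and of ATP synthase, are not spliced, carry short poly(A) tails and stay within mitochondria. They are not made in the nucleus, so in preparations of nuclei they mark organelles or cytoplasmic RNA that came along, and they are commonly used as a quality measure. Neurons and glia of the brain depend heavily on oxidative phosphorylation and hold many of these transcripts in their cell bodies and processes.

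All 9 members lie on the plus strand of the mitochondrial chromosome of GRCm38 as single coding exons without introns. Several have copies in the nuclear genome, annotated as pseudogenes, and a read that matches a gene and its copy equally cannot be placed. Over transcripts of the GENCODE M21 annotation, mt-Co2 (chrM:7013-7696) was identical to Gm28661 (chr1:24614885-24615565) over 681 of its 684 bases. In the same stretch of chromosome 1, mt-Atp6 (chrM:7927-8607) was identical to Gm10925 over 678 of 681 bases, and mt-Co3 (chrM:8607-9390) to Gm28437 over 783 of 784. mt-Nd4 (chrM:10167-11544) was identical to Gm28439 over 876 of 1378 bases. A window of 60 bases of each of these 4 members is shown because it is the same, letter for letter, in the member and its nuclear copy.
mt-Co2, chrM:7313-7372: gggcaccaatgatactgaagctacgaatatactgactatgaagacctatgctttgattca
mt-Atp6, chrM:8227-8286: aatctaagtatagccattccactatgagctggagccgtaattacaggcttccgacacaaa
mt-Co3, chrM:8907-8966: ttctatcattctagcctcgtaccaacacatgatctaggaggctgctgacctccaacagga
mt-Nd4, chrM:10467-10526: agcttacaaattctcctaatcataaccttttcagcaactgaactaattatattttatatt

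The copies of the other members carried mismatches. mt-Cytb (chrM:14145-15288) was 92.9% identical to Gm11410 over 1142 bases, and the same window of both is shown because its 7 mismatches, in capitals, let a read be placed.
mt-Cytb, chrM:14445-14504: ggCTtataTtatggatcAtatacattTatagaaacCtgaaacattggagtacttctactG
Gm11410: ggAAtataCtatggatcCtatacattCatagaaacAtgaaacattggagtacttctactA
For mt-Co1 (chrM:5328-6872) the copy Gm29216 was 99.8% identical over 483 of 1545 bases, and Gm13340 was 97.6% identical over all 1545. For mt-Nd2 (chrM:3914-4951) the copy Gm13339 was 96.7% identical over 510 of 1038 bases. The best copy of mt-Nd5 (chrM:11742-13565) was Gm4076, 95.2% identical over 954 of 1824 bases. No copy of mt-Nd1 (chrM:2751-3707) was found at 90% identity over 200 bases or more.

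Of the members with identical copies, mt-Co2 and mt-Atp6 had few counts in the pooled wells and plates. In SCRB-seq, mt-Co2 had 58 counts over 48 FFPE wells and mt-Atp6 had 6, against 17387 counts of all members. In the FFPE plate nuclei, mt-Co2 had 3 counts and mt-Atp6 had 2, of 111992 counts of all members. In the droplet nuclei, mt-Atp6 had 12159 unique molecular identifiers (UMIs), mt-Co3 had 11805, mt-Co2 had 10639 and mt-Nd4 had 5791, of 77349 for the members. Values of mt-Co3 and mt-Nd4 in the wells and plates were not analysed here. mt-Nd4l, which is no member, has a copy identical over 294 of its 297 bases and had 4875 counts in the SCRB-seq FFPE wells. Whether the handling of reads with several matches set the low counts of mt-Co2 and mt-Atp6 was not tested. Levels of both genes are therefore uncertain in the wells and plates.

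In the SMART-Seq2 wells of pooled nuclei, all 7 members that could be read were higher in each of the 9 FFPE wells than in each of the 3 frozen wells. The members together took 230 to 343 counts per 1000000 mouse counts (CPM) in frozen wells and 3197 to 6086 CPM in FFPE wells. Wells held 270363 to 942966 mouse counts. Of the 9092 genes tested, 3.72% had no overlap in this direction and 4.96% in the other. mt-Co2 and mt-Atp6 are not among these 9092 genes. Each had 0 counts in every frozen well and 2 to 14 counts per FFPE well. As in all bulk wells, fewer cells of a type and less RNA per cell cannot be told apart.

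Among the complex I subunits, which pass electrons from NADH into the chain, mt-Nd1 stood at 28.1, 59.2 and 60.0 CPM in the frozen wells of 10, 50 and 100 nuclei. In the same order it reached 449, 591 and 937 CPM with mineral oil, 629, 1041 and 923 CPM with heated xylene, and 877, 1641 and 1610.2 CPM with room-temperature xylene. The lowest FFPE well was above the highest frozen well by a wide margin, and within every method the 10-nuclei well was the lowest. The fitted difference was +3.99 on the log2 scale (SE 0.48, adjusted p = 8.76e-06, edgeR quasi-likelihood test with Benjamini-Hochberg adjustment over all genes). Percentages of genes called by the same test were 4.09% in either direction, 1.45% as higher in FFPE and 2.64% as lower.

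mt-Nd2 had 5.61, 11.1 and 15.0 CPM in the frozen wells of 10, 50 and 100 nuclei, which is 5, 3 and 7 counts. It had 232, 435 and 443 CPM with mineral oil, 423, 453 and 419 CPM with heated xylene, and 885, 621 and 744 CPM with room-temperature xylene. The rise was +5.30 (log2, SE 0.61, adjusted p = 4.94e-06, edgeR).

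mt-Nd5, the longest member, had the largest fitted difference of those tested. It had 6.73, 3.70 and 12.9 CPM in frozen wells, 13 counts in all. It had 1717, 755 and 503 CPM with mineral oil, 382, 348 and 589 CPM with heated xylene, and 1277, 457 and 455 CPM with room-temperature xylene. The 10-nuclei wells of mineral oil and room-temperature xylene stood apart from the other FFPE wells. The difference from frozen was +6.13 (log2, SE 0.72, adjusted p = 6.39e-06, edgeR).

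mt-Cytb, the only mitochondrially encoded subunit of complex III, had 28.1, 14.8 and 21.4 CPM in the frozen wells of 10, 50 and 100 nuclei. It had 946, 759 and 541 CPM with mineral oil, 964, 786 and 441 CPM with heated xylene, and 865, 1323 and 1331 CPM with room-temperature xylene. It rose by +5.03 (log2, SE 0.54, adjusted p = 2.02e-06, edgeR).

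mt-Co1, the catalytic subunit of cytochrome c oxidase (complex IV), was the highest member in frozen wells and had the smallest difference of those tested. It had 162, 229 and 234 CPM in frozen wells. It had 1091, 1315 and 1115 CPM with mineral oil, 785, 1281 and 1296 CPM with heated xylene, and 956, 1727 and 1916 CPM with room-temperature xylene. It rose by +2.34 (log2, SE 0.37, adjusted p = 0.000282, edgeR), so 5 of the 5 members that passed the filter on low counts were called higher. mt-Nd2, mt-Nd5 and mt-Cytb were too thinly counted in the frozen wells to pass it there. They passed through the FFPE wells, where they were high, so the filter favours this direction. Without the filter, 5 members were called higher as well (edgeR).

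mt-Co2, the subunit of complex IV that takes electrons from cytochrome c, and mt-Atp6, a part of the proton channel of ATP synthase, did not pass that filter. mt-Co2 had 71 counts over the FFPE wells and 0 over the frozen wells, at least 6.19-fold higher in CPM. mt-Atp6 had 66 counts and 0, at least 5.87-fold higher. Both bounds set the frozen group at a floor of 3 counts in its 1628157 mouse counts, and they cover counting error only. Without the filter neither was called in SMART-Seq2 (adjusted p = 0.301 for mt-Co2 and 0.307 for mt-Atp6, edgeR). In SCRB-seq without the filter, mt-Co2 was called higher in FFPE (+2.76, adjusted p = 0.000378, edgeR) and mt-Atp6 was not (+0.38, adjusted p = 0.703, edgeR).

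**Figure D1:**
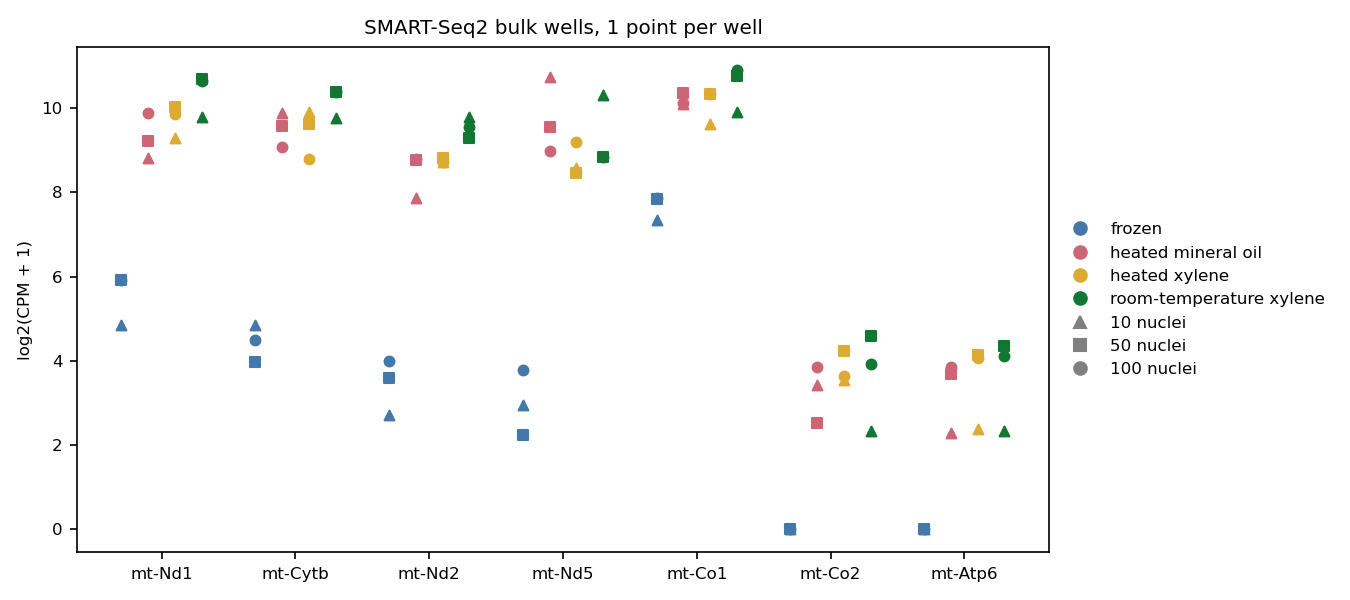
Levels of 7 members on the log2(CPM + 1) scale (vertical axis) in the 12 SMART-Seq2 wells of pooled nuclei, with colours for the paraffin removal method and shapes for the nuclei number. Each point is 1 well, and for mt-Nd1 the FFPE wells, at 449 to 1641 CPM, lie above the frozen wells, at 28.1 to 60.0 CPM.

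In the SCRB-seq wells the same 5 members were called, 4 higher and 1 lower in FFPE, and their ranges overlapped between FFPE and frozen wells. mt-Nd2, mt-Nd5, mt-Cytb and mt-Nd1 rose, and mt-Co1 fell. mt-Nd2 and mt-Nd5 again passed the filter on low counts through the FFPE wells, where they were high. Of the 1478 genes tested, 58% were called in either direction, 30.2% as higher and 27.7% as lower, so a call is common in this comparison. Wells without overlap were rare, with 1.29% of genes above and 1.69% below in every FFPE well. FFPE wells held 7512 to 147257 mouse counts and frozen wells 17611 to 167144. No FFPE well had a count share of human genes under 6.17%, the frozen wells ran from 1.61% to 3.70%, and human genes were left out of the totals.

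mt-Nd1 ran from 423 to 1988 CPM in the 16 frozen wells with a median of 1263 CPM, and from 686 to 7500.4 CPM in the 48 FFPE wells with a median of 2671 CPM. It was above the highest frozen well in 39 of 48 FFPE wells. The difference was +1.08 (log2, SE 0.20, adjusted p = 5.17e-06, edgeR quasi-likelihood test). mt-Nd2 ran from 0 to 290.3 CPM in frozen wells (median 88.0 CPM) and from 0 to 1593 CPM in FFPE wells (median 635 CPM). In 35 FFPE wells it was above every frozen well, and the difference was +2.58 (log2, SE 0.38, adjusted p = 1.94e-08, edgeR). In the 10-nuclei wells alone it was +1.37, and in the 100-nuclei wells alone +3.12. mt-Nd5 was thinly counted, with a median of 33.8 CPM (0 to 227 CPM) in frozen wells and 201 CPM (0 to 2621 CPM) in FFPE wells. It rose by +2.48 (log2, SE 0.49, adjusted p = 9.80e-06, edgeR), and 21 FFPE wells were above every frozen well. In the 10-nuclei wells alone it was +4.01, and in the 100-nuclei wells alone +1.81. The 10-nuclei value is not firm, since 1 frozen well of that size had 4 counts of mt-Nd5 and no other had any.

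mt-Cytb had a median of 415 CPM in frozen wells (56.8 to 1082 CPM) and 1521 CPM in FFPE wells (0 to 3316 CPM). It was above every frozen well in 35 FFPE wells and below every frozen well in 5. It rose by +1.62 (log2, SE 0.35, adjusted p = 5.69e-05, edgeR). mt-Co1 went the other way, with a median of 593 CPM in frozen wells (129 to 1286 CPM) and 343 CPM in FFPE wells (0 to 675 CPM). No FFPE well was above the highest frozen well, 10 were below the lowest, and 5 of 48 were above the frozen mean. The difference was -0.83 (log2, SE 0.26, adjusted p = 0.00498, edgeR).

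The fall of mt-Co1 was the least firm of the 5 calls. It did not pass without a filter on low counts (-0.72, adjusted p = 0.0691, edgeR) or in the 10-nuclei wells alone (-0.85, adjusted p = 0.0938, edgeR), and it was -0.87 in the 100-nuclei wells alone. Scaling by DESeq2 size factors moved the median of all genes tested from 0.00 to -0.58 and the calls from 447 higher and 410 lower to 309 higher and 674 lower. Under that scaling mt-Nd1 was at +0.52, mt-Nd2 at +2.03, mt-Nd5 at +1.93, mt-Cytb at +1.05 and mt-Co1 at -1.40, and all 5 were called. The shift is nearly the same for every gene, so relative to the median of all genes mt-Nd1 stood at +1.10 and mt-Co1 at -0.82.

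**Figure D2:**
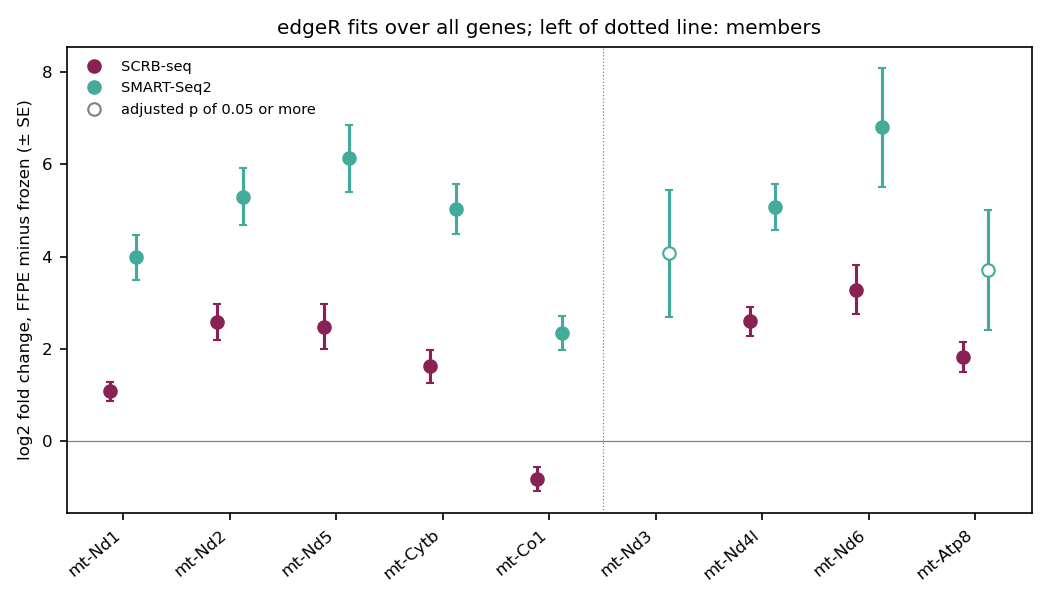
Fitted log2 differences, FFPE minus frozen (vertical axis), of the 5 members tested, left of the dotted line, and of other mitochondrial genes, right of it, in SCRB-seq (purple) and SMART-Seq2 (green), with bars of 1 standard error and open circles for an adjusted p of 0.05 or more. The members lie above 0 in both chemistries except mt-Co1, at -0.83 in SCRB-seq and +2.34 in SMART-Seq2.

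**Figure D3:**
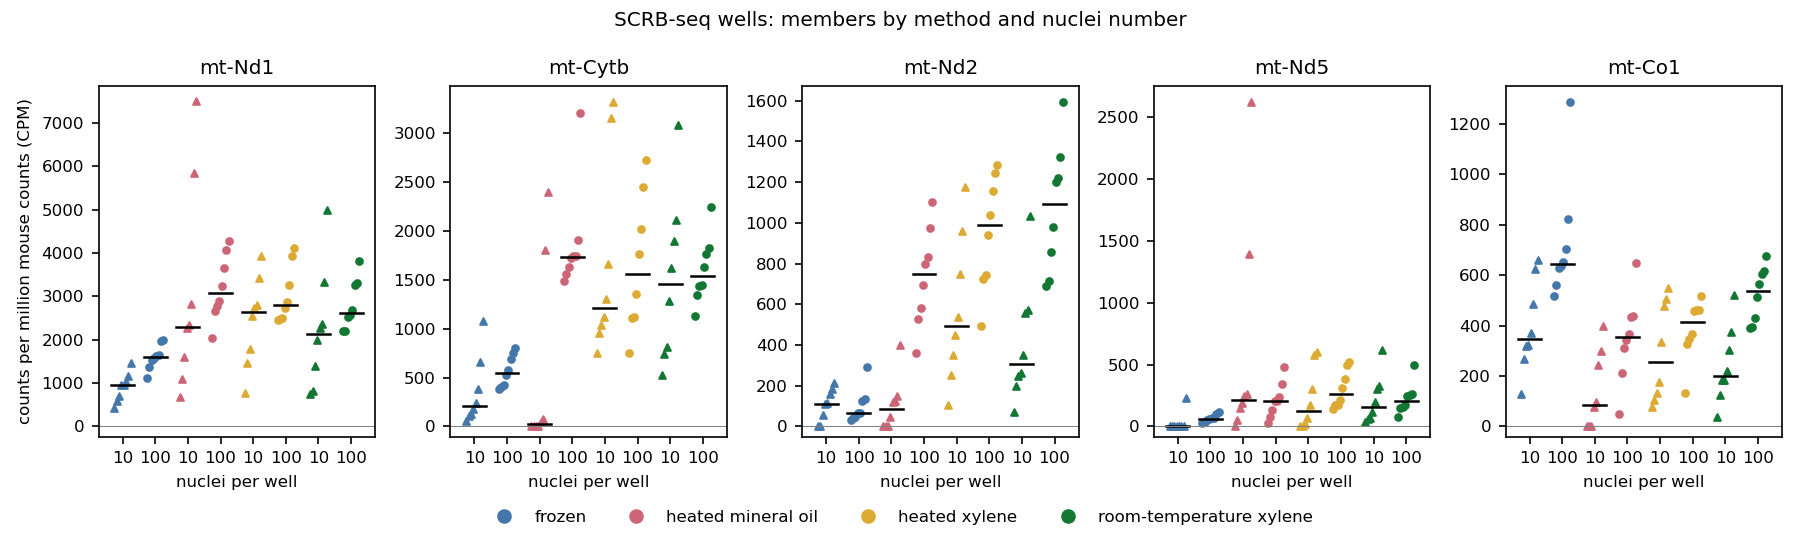
Levels in CPM of the 5 members tested (vertical axis, a separate linear scale per gene) in the 64 SCRB-seq wells, by method and nuclei number. Triangles are wells of 10 nuclei, circles wells of 100 and black lines medians of 8 wells, and mt-Co1 has its highest wells in the frozen group, at up to 1286 CPM.

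The direction of mt-Co1 differed between the chemistries, and the difference between chemistries was not tested. Within the members' own counts mt-Co1 was lower in FFPE in both. In SMART-Seq2 it made up 69.8% of the members' counts in frozen wells (315 of 451 counts, exact 95% binomial interval 65.4% to 74.0%) and 29.2% in FFPE wells (28.6% to 29.8%). Per well this share was 68.1% to 72.1% in the 3 frozen wells and 19.6% to 35.1% in the 9 FFPE wells, with no overlap. In SCRB-seq it was 23.5% in frozen wells (21.9% to 25.2%) and 6.36% in FFPE wells (6.00% to 6.73%). Intervals cover counting error only.

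mt-Nd2 moved the opposite way within the members' counts. Its share was 3.33% in frozen and 11.8% in FFPE wells of SMART-Seq2, and 3.91% and 13.6% in SCRB-seq. The share of mt-Cytb was 8.65% and 20.4% in SMART-Seq2, and 18.1% and 27.5% in SCRB-seq. The share of mt-Nd5 was 2.88% and 15.6% in SMART-Seq2 and 1.99% and 4.43% in SCRB-seq. mt-Nd1 had a higher share in the FFPE wells of SMART-Seq2 (22.5% against 15.3%) and a lower one in those of SCRB-seq (47.7% against 52.4%).

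Levels per kilobase were set side by side in SMART-Seq2, which reads along the transcript, but the evenness of coverage was not checked. Nuclear copies also differ between genes: mt-Co1 has one 99.8% identical over 483 of 1545 bases, and none was found for mt-Nd1. The orders below therefore need not be orders of abundance. In frozen wells the order was mt-Co1 (135 CPM per kb), mt-Nd1 (51.3), mt-Cytb (18.7), mt-Nd2 (10.2) and mt-Nd5 (4.26). In FFPE wells mt-Nd1 was first, at 1009.9 CPM per kb, followed by mt-Co1 (826), mt-Cytb (773), mt-Nd2 (498) and mt-Nd5 (395). The ranges of neighbours in the FFPE order overlapped across wells, as the values per well above show. No such order was drawn from SCRB-seq, whose counts come from transcript ends.

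The other protein-coding genes of the mitochondrial genome went the same way as most members. mt-Nd4l, mt-Nd6 and mt-Atp8 were tested in SCRB-seq and called higher in FFPE, by +2.60, +3.28 and +1.83 (log2). In 10-nuclei wells alone mt-Nd6 was not called (+0.88, adjusted p = 0.465, edgeR). In SMART-Seq2, mt-Nd4l (+5.08) and mt-Nd6 (+6.80) were called higher, while mt-Nd3 (+4.07, adjusted p = 0.114, edgeR) and mt-Atp8 (+3.72, adjusted p = 0.126, edgeR) did not pass. mt-Atp8 shares 43 bases with mt-Atp6 (chrM:7927-7969), which lies on the same strand, so reads within those bases cannot be assigned to 1 of the 2 genes. mt-Nd6 shares 14 bases with mt-Nd5 on the opposite strand, and reads there cannot be told apart without strand.

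Nuclear-encoded respiratory chain genes, whose products assemble with those of the members, were called higher in part and never lower. Shares of all genes called higher were 30.2% in SCRB-seq and 1.45% in SMART-Seq2, and with few genes per list the counts below were not tested against them. Of 20 complex I genes listed, 3 were tested in SCRB-seq and 2 rose, while in SMART-Seq2 1 of 19 rose and none fell. Ndufa4, a subunit first assigned to complex I and later to complex IV, rose by +2.68 in SCRB-seq (adjusted p = 3.36e-09, edgeR) and by +3.46 in SMART-Seq2 (adjusted p = 0.00241, edgeR). Of complex IV genes, 4 of 5 rose in SCRB-seq, with Cox6b1 at +2.48 and Cox7a2 at +1.87, and 2 of 9 rose in SMART-Seq2, with Cox6a1 at +6.73 and Cox8a at +3.45. Of ATP synthase genes, 2 of 6 rose in SCRB-seq (Atp5e at +3.29 and Atp5b at +1.12) and 0 of 12 in SMART-Seq2. The 1 complex III gene tested in SCRB-seq, Uqcrh, rose by +1.57, and 0 of 8 were called in SMART-Seq2. Genes for mitochondrial RNA synthesis and handling, which act on the members' own transcripts, gave 0 calls among 13 tested in SMART-Seq2 and none was tested in SCRB-seq. In SMART-Seq2 the median difference was +1.43 over complex I genes and -0.63 over the RNA handling genes, beside -0.13 over all 9092 genes.

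Most RNAs known to stay in the nucleus were lower in FFPE wells. Of 5 nucleus-retained noncoding RNAs tested in SCRB-seq 4 fell and 1 rose, and of 6 in SMART-Seq2 4 fell. Over all genes, 27.7% were called lower in SCRB-seq and 2.64% in SMART-Seq2. The RNA that rose was Neat1, the scaffold of paraspeckles, at +2.36 in SCRB-seq, and in SMART-Seq2 it stood at +2.60 (adjusted p = 0.120, edgeR). Malat1, an abundant RNA of nuclear speckles, differed by -2.96 in SCRB-seq and -0.74 in SMART-Seq2, and Meg3 by -1.81 and -1.85. Of 12 abundant cytoplasmic messenger RNAs listed, 3 rose and 1 fell of 8 tested in SCRB-seq, and 6 rose and 0 fell of 12 in SMART-Seq2. In SMART-Seq2 Tmsb4x, which encodes an actin-binding peptide, rose by +3.96 and Cst3 by +3.71.

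Markers of cerebellar granule neurons also separated the FFPE from the frozen wells. Their summed level, over 6 of the 7 listed genes with a row, was 901 to 2992 CPM in FFPE wells of SMART-Seq2 (median 1515 CPM) and 44.4 to 141 CPM in frozen wells (median 62.1 CPM), with Gabra6, Cbln1, Cbln3, Pax6 and Zic1 at 0 in the frozen wells. In SCRB-seq it was 284 to 6115 CPM (median 1376 CPM) in FFPE and 0 to 101 CPM (median 14.1 CPM) in frozen wells, with Gabra6 and Cbln3 at 0 there. All 5 granule markers tested in SCRB-seq and all 6 in SMART-Seq2 were called higher. Summed excitatory neuron markers were lower in FFPE: 95.8 to 674 CPM against 919 to 1695 CPM in SCRB-seq, and 46.8 to 366 CPM against 1113 to 1545 CPM in SMART-Seq2. FFPE and frozen wells thus differed in markers of cell types as well as in fixation, and the part of either in the members' levels was not tested.

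Across the 12 SMART-Seq2 wells, the genes whose levels ran most like the summed members were Zic1 (Pearson r = 0.987 on log2 of CPM plus 1), Cbln3 (0.979), Nmbr (0.975), Rps19 (0.969) and Myo3a (0.969), out of 4125 genes ranked. The wells fall into an FFPE and a frozen cluster, so these values describe that separation.

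The 3 paraffin removal methods were compared in pairs to ask whether the way of removing paraffin moved the members. No member was called in any of the 6 pairs, 3 in each chemistry (edgeR). In SCRB-seq, 8.52% of 1080 genes were called between mineral oil and heated xylene, 10.3% between mineral oil and room-temperature xylene, and 1.94% between the xylenes. At an unadjusted p under 0.05 the SCRB-seq pairs held 257, 249 and 176 genes. In SMART-Seq2 0 of 8372 genes were called in any pair, with 314 genes at an unadjusted p under 0.05 between mineral oil and heated xylene, 379 between mineral oil and room-temperature xylene and 199 between the xylenes. DESeq2's Wald test called no member in any pair either.

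mt-Nd2 in the SCRB-seq mineral oil wells came closest. With 100 nuclei it ran from 360 to 1104 CPM in mineral oil wells (median 747 CPM), 494 to 1286 CPM with heated xylene (median 991 CPM) and 690.3 to 1593 CPM with room-temperature xylene (median 1090.3 CPM). With 10 nuclei the medians were 85.2, 493 and 307 CPM, and the 8 mineral oil wells held 11 counts of it in all. These mineral oil wells were also the shallowest, at 7512 to 20593 mouse counts, with 22.9% to 31.8% of their counts on human genes. Mineral oil minus heated xylene was -0.80 (log2, SE 0.39, adjusted p = 0.191, edgeR) over all wells and -0.36 (adjusted p = 0.358, edgeR) in the 100-nuclei wells. It passed the threshold with nuclei number as a term (-1.17, adjusted p = 0.0152, edgeR) and in the 10-nuclei wells alone (-2.75, adjusted p = 0.00277, edgeR). Mineral oil minus room-temperature xylene was -0.74 (adjusted p = 0.238, edgeR), with -1.02 (adjusted p = 0.0248, edgeR) under the nuclei number term and -2.30 (adjusted p = 0.0126, edgeR) with 10 nuclei.

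The other members were spread widely within each method. mt-Nd1 with 100 nuclei had medians of 3071, 2809 and 2619 CPM with mineral oil, heated xylene and room-temperature xylene, and ran from 2047 to 4269 CPM over the 24 wells. mt-Cytb with 100 nuclei had medians of 1733, 1556 and 1539.7 CPM. With 10 nuclei its median was 24.9 CPM with mineral oil, where 4 of 8 wells had a count, against 1214 and 1454 CPM with the xylenes. Mineral oil minus heated xylene was -0.52 for mt-Cytb (SE 0.42, adjusted p = 0.477, edgeR) over all wells. Over the alternatives run it ranged from -2.04 to +0.19, and mineral oil minus room-temperature xylene from -2.08 to +0.30, with 0 calls. In SMART-Seq2 the mineral oil wells had less mt-Nd1 than the room-temperature xylene wells (659 and 1376 CPM on average), a difference of -0.99 (log2, SE 0.43, unadjusted p = 0.0295, adjusted p = 1.00, edgeR). In the other direction, mt-Nd5 was higher with mineral oil than with heated xylene by 1.21 (log2, SE 0.56, unadjusted p = 0.0408, adjusted p = 1.00, edgeR), and by 0.44 without the mineral oil well of 10 nuclei.

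Wells of 100 and of 10 nuclei ask whether the members' share depends on how many nuclei were pooled. Over all FFPE wells in SCRB-seq, mt-Nd2 was higher with 100 nuclei by +1.66 (log2, SE 0.28, adjusted p = 1.20e-06, edgeR), mt-Co1 by +0.94 (SE 0.26, adjusted p = 0.00174, edgeR) and mt-Cytb by +0.79 (SE 0.28, adjusted p = 0.0133, edgeR). mt-Nd1 (+0.30, adjusted p = 0.129, edgeR) and mt-Nd5 (-0.30, adjusted p = 0.487, edgeR) did not pass. The same test called 57.2% of 2511 genes, 47.2% as higher, with a median of +0.79 over all of them, so mt-Cytb sat at that median. Without the mineral oil wells 0 of these members were called: mt-Nd2 was +0.74 (adjusted p = 0.0562, edgeR), mt-Co1 +0.47 (adjusted p = 0.173, edgeR) and mt-Cytb -0.18 (adjusted p = 0.614, edgeR), beside a median of +0.05 over all genes.

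In the frozen wells 0 members were called between 100 and 10 nuclei, beside 0.0398% of genes, or 1 gene of 2511, and 187 genes at an unadjusted p under 0.05 (edgeR; 2 genes by DESeq2's Wald test). mt-Nd1 ran from 423 to 1460.2 CPM with 10 frozen nuclei and from 1119 to 1988 CPM with 100, a difference of +1.06 (log2, adjusted p = 0.157, edgeR). mt-Co1 ran from 129 to 661 CPM and from 518 to 1286 CPM, a difference of +1.09 (adjusted p = 0.358, edgeR). Whether the effect of nuclei number differed between FFPE and frozen wells was tested directly: 0 members were called, beside 16.6% of genes. mt-Nd2 came closest, at +1.58 (adjusted p = 0.0537, edgeR), and passed with DESeq2 size factors (adjusted p = 0.00915, edgeR) and by DESeq2's Wald test (adjusted p = 0.00311). Without the mineral oil wells it was +0.80 (adjusted p = 0.485, edgeR). mt-Nd5 was at -2.46 (adjusted p = 0.0836, edgeR) and mt-Nd1 at -0.76 (adjusted p = 0.128, edgeR), both in the opposite direction.

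In single plate nuclei the ranges of the FFPE and frozen plates overlapped for each of the 5 well-counted members. Members together took 0.474% of counts in 143 FFPE nuclei and 0.436% in 137 frozen nuclei, with medians per nucleus of 0.300% and 0.207%. There were 2 plates on each side and nuclei are not replicates, so no test was made. The authors' tables hold no nucleus above 4.91% mitochondrial counts in the FFPE batches or 3.81% in the frozen nuclei. FFPE nuclei had a median of 47887 counts and frozen nuclei 255329.

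mt-Nd1 was at 609 and 1802 CPM in the pooled counts of the 2 FFPE plates (MB14 and MB16) and at 1364 and 868 CPM in those of the 2 frozen plates. mt-Cytb was at 1668 and 1287 CPM in the FFPE plates and at 1434 and 1171 CPM in the frozen plates. mt-Co1 was at 1122 and 916 CPM in the FFPE plates and at 1331 and 988 CPM in the frozen ones. For these 3 members, the plates of the 2 groups overlapped. mt-Nd2 was at 97.7 and 652 CPM against 653 and 294 CPM, and mt-Nd5 at 203 and 406 CPM against 368 and 278 CPM, again with overlap.

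Pooled ratios of FFPE to frozen were 1.37 for mt-Nd1, 1.11 for mt-Nd2 and mt-Nd5, 1.06 for mt-Cytb and 0.835 for mt-Co1. Ratios of the medians over nuclei fell on the other side of 1 for 4 of these: 0.881 for mt-Nd1, 0.441 for mt-Nd2, 0.500 for mt-Nd5 and 1.40 for mt-Co1. Single nuclei weigh heavily on the pooled values. A single nucleus held 23.2% of the FFPE counts of mt-Nd1, and another held 31.6% of the frozen counts of mt-Nd2. Of the FFPE nuclei, 134 also stand in the second batch table with identical values, and the other 9 were deeper, at 102136 to 4973791 counts. Without those 9 the summed share in FFPE nuclei was 0.549% rather than 0.474%. The pooled ratio of mt-Nd2 then turned to 0.822, and those of the others were 1.55 for mt-Nd1, 1.52 for mt-Nd5, 1.35 for mt-Cytb and 0.989 for mt-Co1.

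After each nucleus was thinned to 10000 counts, which left out 8 FFPE and 10 frozen nuclei, mt-Cytb was seen in 85.9% of FFPE and 68.5% of frozen nuclei. mt-Co1 was seen in 82.2% and 73.2%, and mt-Nd1 in 78.5% and 72.4%. mt-Nd2 was seen in 50.4% and 56.7%, and mt-Nd5 in 45.9% and 51.2%. Without thinning the shares were 93.7% and 84.7% for mt-Cytb, 90.2% and 89.1% for mt-Co1, 91.6% and 92.0% for mt-Nd1, 71.3% and 79.6% for mt-Nd2, and 63.6% and 75.9% for mt-Nd5.

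Per kilobase of transcript, in counts pooled over plates, the 5 members had the same order in FFPE and frozen nuclei, but the order differed between plates. mt-Nd1 was highest (1589 and 1160 CPM per kb), then mt-Cytb (1204 and 1136), mt-Co1 (624 and 748), mt-Nd2 (502 and 452) and mt-Nd5 (196 and 176). In the frozen wells of pooled nuclei, made with the same chemistry, mt-Co1 came first. By plate, mt-Cytb was first on MB14 (1458 CPM per kb, with mt-Co1 at 726 and mt-Nd1 at 636) and on the frozen plate 2 (1023, with mt-Nd1 at 907). mt-Nd1 was first on MB16 (1883 CPM per kb) and on the frozen plate 1 (1425). No test was made of the order, and the evenness of coverage was not checked here either.

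Levels of the 5 members varied together more among frozen than among FFPE nuclei. After thinning, Spearman correlations over the 10 pairs of members were 0.340 to 0.715 in 127 frozen nuclei (median 0.492) and 0.154 to 0.445 in 135 FFPE nuclei (median 0.209). By plate the medians were 0.531 and 0.439 in the frozen plates and 0.225 and 0.194 in the FFPE plates MB14 and MB16. MB18, a plate of another FFPE batch, had a median of 0.297 over 68 nuclei (0.250 to 0.500). Its lowest pair was above the lowest of frozen plate 2 (0.190). These values are descriptions over nuclei that share a plate and a thinned depth.

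The first FFPE batch, a separate table of 98 nuclei, held more counts of mt-Co2 and mt-Atp6 than the second. mt-Co2 had 476 counts there, in 48 of the nuclei, and mt-Atp6 had 217, in 36, against 0 and 1 counts in the 134 nuclei of the second batch. Nuclei of the first batch were deeper, with a median of 180584 counts against 42747. After thinning, mt-Co2 was seen in 12.2% and 0% of nuclei, and mt-Atp6 in 6.67% and 0.794%. mt-Atp8, for which no nuclear copy was found, was seen in 7.78% and 0%. mt-Nd4l, which has an identical copy, was seen in 73.3% and 82.5%. Within that first batch, mt-Nd1 was at 2908 CPM on plate MB17 and 1435 CPM on plate MB18, while mt-Co1 was at 514 and 1812 CPM. The batches' tables were not tested against each other. Nuclei of a further FFPE batch were not analysed here.

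**Figure D4:**
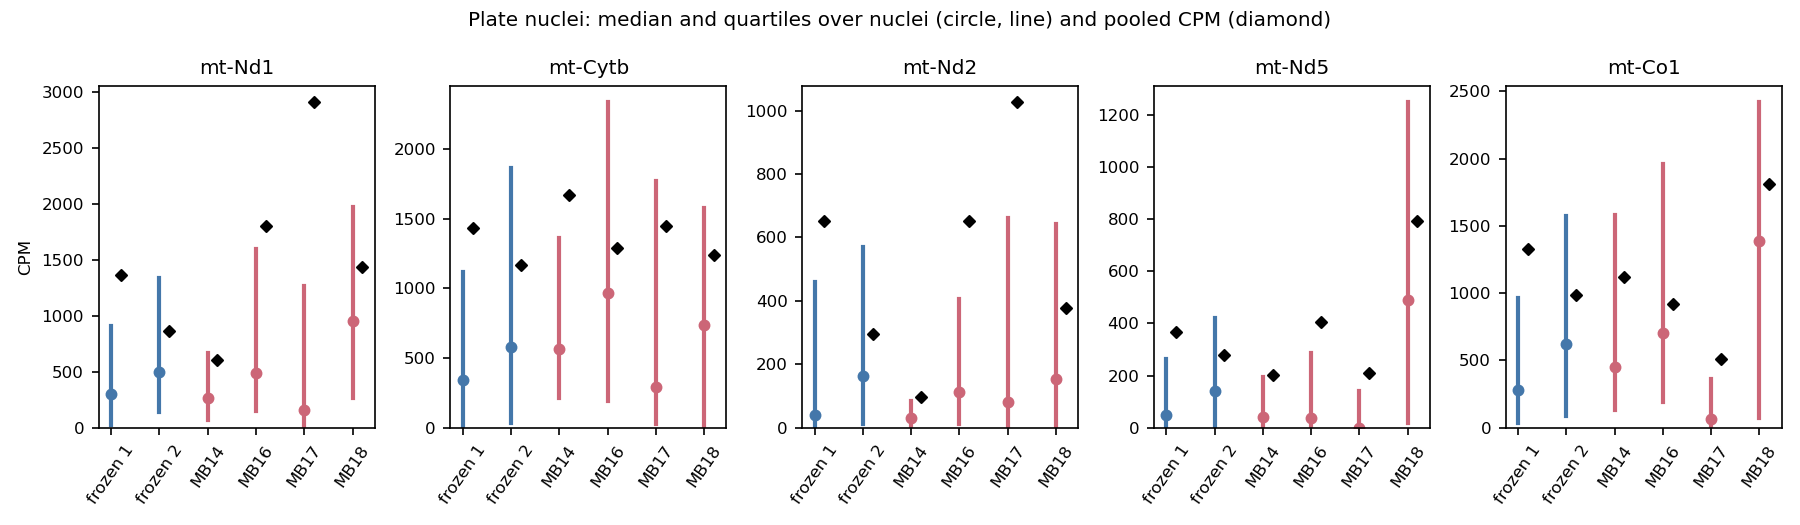
Levels of the 5 members in CPM (vertical axis, a separate linear scale per gene) on each SMART-Seq2 plate of single nuclei, with the frozen plates in blue and the FFPE plates in red, MB17 and MB18 being those of the first batch. Circles are medians over nuclei, lines run between the quartiles and diamonds are pooled values, which for mt-Nd1 lie at 609 and 1802 CPM on MB14 and MB16, on either side of the frozen plates at 1364 and 868 CPM.

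Droplet nuclei had all 9 members, and these took 2.97% of UMIs (exact 95% binomial interval 2.95% to 2.99%). The authors' table holds no nucleus above 4.99% mitochondrial UMIs, so the upper end of the range is set by that limit. Nuclei had 235 to 998 UMIs with a median of 325, and there is 1 library, so classes were compared without a test. Every cell type makes these transcripts, so no class gives their background from free RNA. Oligodendrocyte markers took 0.121% to 0.259% of UMIs in the 11 classes of other names, and the part of free RNA in the members' shares and in their spread over classes was not tested.

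The ATP synthase member mt-Atp6 took 0.467% of UMIs and was seen in 80.9% of nuclei. Of the complex IV members, mt-Co3 took 0.453%, mt-Co2 0.408% and mt-Co1 0.380%, in 80.4%, 75.8% and 73.8% of nuclei. mt-Cytb took 0.364%, in 73.3% of nuclei. Of the complex I members, mt-Nd2 took 0.338%, mt-Nd1 0.251%, mt-Nd4, a subunit of the proton-pumping arm, 0.222%, and mt-Nd5 0.0849%, in 70.3%, 58.4%, 54.9% and 26.7% of nuclei. No order per kilobase was drawn, since the UMIs come from transcript ends.

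The order of the members was steady over classes at its lower end and varied at its upper end. mt-Nd5 was last of the 9 in 12 of 12 classes, mt-Atp6 held places 1 to 3 and mt-Co3 places 1 to 4. mt-Nd1 and mt-Nd4 held places 7 and 8 throughout, and mt-Nd2 places 5 and 6. mt-Cytb ranged over places 2 to 6, mt-Co2 over 2 to 5 and mt-Co1 over 3 to 5.

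The summed members took 2.75% of UMIs in ExNeuron1 (2.72% to 2.79%, 2121 nuclei), the lowest class, and 3.31% in ExNeuron2 (3.25% to 3.37%, 1098 nuclei), the highest. Glial and vascular classes lay between: oligodendrocytes at 3.29% (3.18% to 3.39%), astrocytes at 3.21% (3.13% to 3.28%), microglia at 3.18% (2.98% to 3.39%), fibroblasts at 3.14% (2.91% to 3.40%, 47 nuclei), endothelial cells at 3.01% (2.87% to 3.15%) and oligodendrocyte precursors at 2.96% (2.84% to 3.08%). ExNeuron4, at 2.85%, and ExNeuron5, at 2.93%, were low, and ExNeuron3 (2.97%) and ExNeuron6 (3.01%) were near the whole.

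For single members the highest class exceeded the lowest by 1.24-fold for mt-Nd2 to 1.51-fold for mt-Nd5. mt-Atp6 was lowest in ExNeuron1 (0.429%, 0.415% to 0.444%) and highest in oligodendrocytes (0.556%, 0.513% to 0.602%). mt-Co3 and mt-Co1 had the same lowest and highest classes, at 0.412% and 0.516% for mt-Co3 and at 0.349% and 0.435% for mt-Co1. mt-Nd2 and mt-Co2 were highest in ExNeuron2, at 0.387% and 0.459%. mt-Nd5 was highest in microglia (0.116%, 0.0804% to 0.162%) and lowest in ExNeuron4 (0.0767%, 0.0672% to 0.0872%), intervals that overlap.

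The class names were checked against markers. Each of the oligodendrocyte, astrocyte, precursor, microglia and endothelial lists had its highest share in the class of that name, at 1.13%, 0.496%, 0.108%, 0.157% and 0.194% of UMIs. Oligodendrocyte markers exceeded the class's own list in microglia (0.249%) and precursors (0.259%), and astrocyte markers did so in endothelial cells (0.258%), microglia (0.218%) and precursors (0.153%). Excitatory markers had their highest share in ExNeuron1, at 0.157%, with 0.154% in microglia. In each of the 6 ExNeuron classes astrocyte and oligodendrocyte markers exceeded them, as in ExNeuron2, with 0.185% and 0.171% against 0.113%. Cortical layer markers had their highest share in astrocytes, at 0.0961%. Fibroblasts were not checked. Markers of cerebellar granule neurons, which are excitatory, had their highest share in ExNeuron3, at 0.183%. Inhibitory neuron markers had theirs in ExNeuron4, at 0.135%, where excitatory markers took 0.0817% and astrocyte markers 0.146%.

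**Figure D5:**
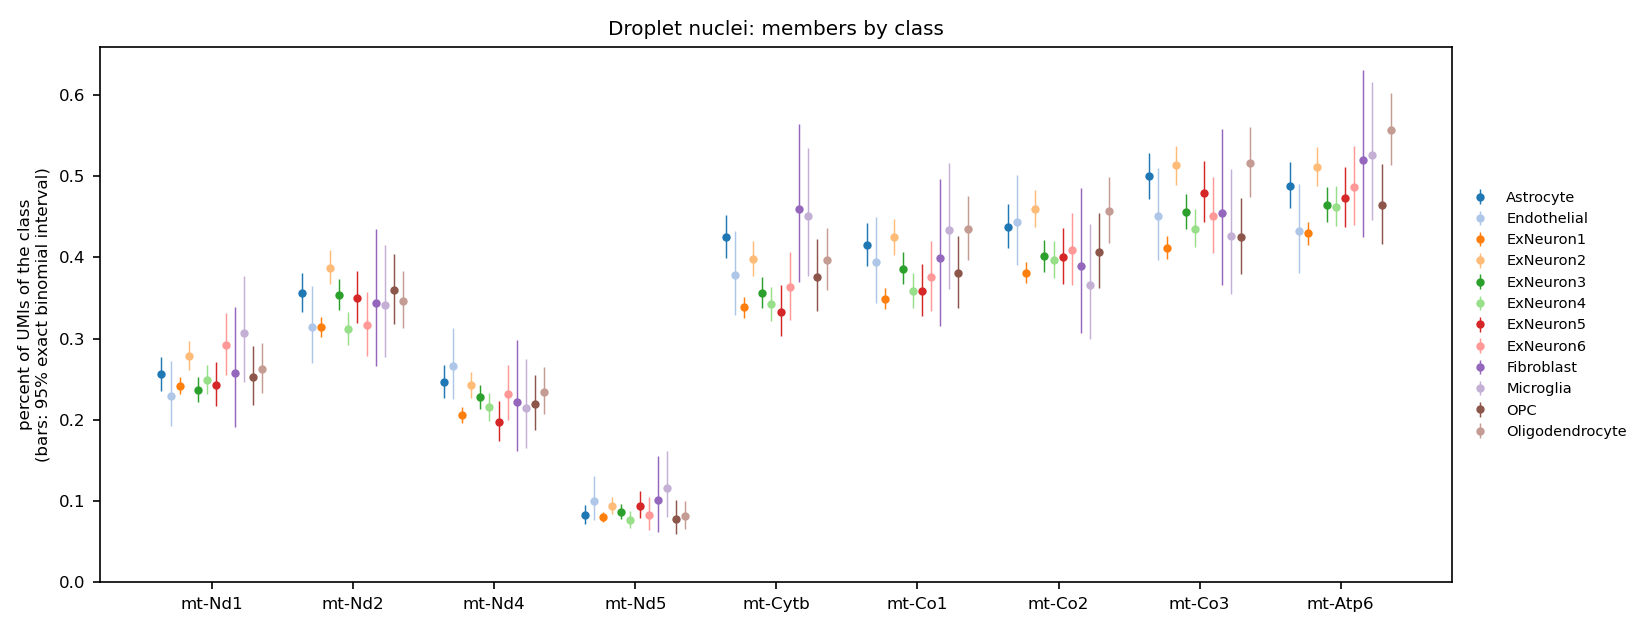
Percent of UMIs taken by each member (vertical axis, linear) in the 12 classes of droplet nuclei, with exact 95% binomial intervals that cover counting error only. mt-Atp6 runs from 0.429% to 0.556% across classes, and mt-Nd5 lies below the other members in each of them.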

How the data were processed

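The values in all tables are whole-number counts per gene and well or nucleus, deposited by the authors without normalization. Builds hg19 and mm10 come from the submitters' processing notes, and the aligner, the counter, and whether SCRB-seq counts were collapsed by molecular identifier, were not given in the sources. Per the file headers, the plate tables give the percent of counts on mouse genes for each nucleus, which is at least 90% in all of them. The fraction of mitochondrial counts per nucleus was deposited by the authors too and was used to describe their filter.

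CPM used the mouse total of each well or nucleus. Differences were fitted with edgeR 4.0.16 (R 4.3.3; quasi-likelihood test, TMM, filterByExpr, Benjamini-Hochberg adjustment, threshold 0.05) over all genes and all wells of the groups compared. The fit was tested on simulated data, and alternatives used DESeq2 1.42.0. Nuclei were thinned at random, to 10000 counts in plates and 200 UMIs in droplets. Doublets were not called. Plate nuclei in the whole-series table carry no sample label, so FFPE and frozen come from its annotation. Copies were sought with blastn 2.17.0 over GENCODE M21 transcripts. The genes named were all members, other mitochondrial genes, the overlapping copies, up to 3 called genes per list and direction, and the 5 genes most correlated with the summed members at a mean of 50 CPM or more. Members and lists were chosen with earlier results of these data known.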

Additional observations from a re-analysis of the deposited data

Results flagged for a closer look

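In groups of 8 SCRB-seq wells, 1 well stood far from the rest by Dixon's criterion in 6 of 40 groups of a member, method and nuclei number. For normally distributed values chance gives about 1 in 20. Values from few counts are skewed, so 6 of 40 cannot be read as an excess. With room-temperature xylene and 100 nuclei, the highest mt-Nd5 well had 499 CPM (57 counts) and the next 262 CPM. With mineral oil and 100 nuclei, the highest mt-Cytb well had 3202 CPM (264 counts) and the next 1906 CPM. With mineral oil and 10 nuclei, the highest mt-Nd2 well had 399 CPM, which is 3 counts, and the next 149.6 CPM. In frozen wells of 100 nuclei, the highest mt-Nd2 well had 290.3 CPM (19 counts) against 137 CPM in the next, and the highest mt-Co1 well had 1286 CPM (77 counts) against 825 CPM. In frozen wells of 10 nuclei, 1 well had 227 CPM of mt-Nd5 (4 counts) and the other 7 had none.

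Outside the members, mt-Nd6, a complex I gene on the other strand, differed between FFPE and frozen wells in the effect of nuclei number in SCRB-seq. Its 100 minus 10 difference was larger in FFPE by 3.00 on the log2 scale (adjusted p = 0.0144, edgeR). The 8 mineral oil wells of 10 nuclei held 1 count of it, and without all mineral oil wells the difference was 1.12 (adjusted p = 0.499, edgeR), an alternative chosen after seeing the data.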

How the results depend on the processing

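The 5 members called between FFPE and frozen wells were called under every alternative run in SMART-Seq2, leaving out each well in turn included (5 each time), with mt-Nd5 at 6.77 without the frozen well of 100 nuclei. In SCRB-seq 4 of them were, and mt-Co1 was not in the settings given in the report. With nuclei number as a term, or in the 10-nuclei wells alone, 1 member (mt-Nd2) was called between mineral oil and each xylene. By DESeq2 size factors and by the Wald test, 1 member (mt-Nd2) was called in the difference between FFPE and frozen wells in the effect of nuclei number, where mt-Co1 turned to 0.36 under both and mt-Cytb to 0.25 and 0.24. Without the mineral oil wells, an alternative chosen after seeing the data, 0 members were called between 100 and 10 FFPE nuclei, mt-Cytb turned to -0.18 and mt-Nd5 to 0.047. In that comparison mt-Nd1 was called with DESeq2 size factors (0.45), DESeq2's Wald test (0.46) and no filter (0.58). The causes of these changes were not tested.

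The summed members in FFPE plate nuclei were 0.549% without the 9 nuclei absent from the second batch and 0.467% after thinning. In frozen plate nuclei they were 0.429% as the mean over nuclei and 0.394% after thinning. In droplet nuclei they were 3.02% as the mean over nuclei, 3.01% after thinning, and 3.32% with the other genes of the mitochondrial genome added.

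Some log2 differences that were not called changed sign. In SCRB-seq, the difference of mineral oil from heated xylene became -0.13 for mt-Nd1 without a filter, and in 100-nuclei wells -0.49 for mt-Nd5 and 0.19 for mt-Cytb. Heated minus room-temperature xylene became -0.021, -0.067 and -0.069 for mt-Nd1, mt-Nd2 and mt-Cytb with DESeq2 size factors, and -0.019, -0.066 and -0.072 with the Wald test. In 10-nuclei wells it became -0.031 for mt-Nd1, -0.017 for mt-Nd5, -0.041 for mt-Cytb and 0.18 for mt-Co1, and in 100-nuclei wells -0.11 for mt-Nd2. Mineral oil minus room-temperature xylene became -0.00036 for mt-Nd1 without a filter, and in 100-nuclei wells -0.0058 for mt-Nd5 and 0.30 for mt-Cytb. Frozen 100 minus 10 nuclei became -0.13 for mt-Nd2 with size factors and -0.14 with the Wald test. In SMART-Seq2, mineral oil minus heated xylene for mt-Cytb became -0.044 without a filter and -0.0066 with library sizes free of mitochondrial genes. Leaving out 1 well gave -0.31 to 0.32 for mt-Cytb and -0.11 to 0.15 for mt-Co1 in that pair. It gave -0.93 to 0.085 for mt-Nd5 between the xylenes and -0.23 to 1.28 between mineral oil and room-temperature xylene, where the 10-nuclei wells turned the sign. Of the values for single genes or classes, 488 kept their side of the threshold and direction or moved by less than the spread, 36 changed sign, 14 moved further, 9 passed the threshold newly and 4 no longer passed.

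Wells were not paired by animal, because those of a chemistry belong to 1 sample and carry no shared replicate numbers. With nuclei number as a term, SMART-Seq2 wells were compared within each size. In that fit 5 members were called higher in FFPE than in frozen wells, and 0 were called between paraffin removal methods (edgeR). In the 10-nuclei mineral oil wells of SCRB-seq, the shallowest, mt-Nd2 had a count in 5 of 8 wells and mt-Cytb in 4. The part of depth in these counts was not tested.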
